A study of Mus musculus with 6 samples.

Results

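Per1, Ciart and Arntl are 3 genes of the circadian clock. They were chosen by name from the deposited expression table of mouse hippocampus, where they are 3 of 2404 listed genes. Total RNA was sequenced from the hippocampi of 3 mice given CORT (corticosterone, the stress hormone by which rodents activate the glucocorticoid receptor, named as cortisone in the treatment label) and of 3 mice given vehicle. The mice were male C57BL/6, aged 7 to 8 weeks when divided into groups, and received 40 mg/kg CORT or the DMSO and Tween-80 vehicle as a daily injection under the skin for 36 days. They carried no engineered allele, and each hippocampus held all of its cell types together. The hour at which the tissue was taken is not given in the sources used here, and each mouse was measured at a single time.

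The mammalian clock is a feedback loop of transcription in nearly every cell. BMAL1, the protein of Arntl, pairs with CLOCK and binds DNA letters called E-boxes, switching on its own repressors. Those repressors include PER1, the protein of Per1, which acts with the CRY proteins, and CHRONO, the protein of Ciart, which binds BMAL1 itself. In a second loop the ROR proteins activate Arntl and the REV-ERB proteins repress it. Because of this wiring, Arntl RNA and the RNA of its repressors normally peak at opposite times of day. Per1 is also an immediate target of the glucocorticoid receptor and of CREB, a factor switched on by neuronal activity and cyclic AMP, and the hormone is one of the signals that set clocks outside the brain's central pacemaker.

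The start regions of the 3 genes are shown because they carry different sets of these binding letters. All 3 genes matched by symbol to the RefSeq promoter table (build GRCm38.p6, an earlier build than the one used for the expression values), which holds 250 bases before and 50 bases after each start. Capitals mark matches, on either strand, to CACGTG (the E-box), TGACG (the core of CREB's site, the CRE), TAGGTCA (the ROR and REV-ERB site), TTATGNAA (the site of PAR bZIP proteins such as HLF and DBP) or ACANNNTGT (the core of the glucocorticoid receptor's site). No match overlapped another, and every match was on the strand shown.
Ciart start 1, chr3:95882179-95882478, minus strand: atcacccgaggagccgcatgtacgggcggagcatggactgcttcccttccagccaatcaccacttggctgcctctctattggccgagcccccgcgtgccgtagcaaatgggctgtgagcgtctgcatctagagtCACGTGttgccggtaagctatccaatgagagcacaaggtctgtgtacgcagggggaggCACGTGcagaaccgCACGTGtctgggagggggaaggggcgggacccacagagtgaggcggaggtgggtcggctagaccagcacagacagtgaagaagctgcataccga
Per1 start 1, chr11:69098699-69098998, plus strand: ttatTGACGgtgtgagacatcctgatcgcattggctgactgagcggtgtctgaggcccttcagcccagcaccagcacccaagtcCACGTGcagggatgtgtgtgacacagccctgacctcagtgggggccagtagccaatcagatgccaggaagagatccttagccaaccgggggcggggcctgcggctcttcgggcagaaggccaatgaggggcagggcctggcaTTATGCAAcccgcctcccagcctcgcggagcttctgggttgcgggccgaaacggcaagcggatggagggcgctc
Per1 start 2, chr11:69099902-69100201, plus strand: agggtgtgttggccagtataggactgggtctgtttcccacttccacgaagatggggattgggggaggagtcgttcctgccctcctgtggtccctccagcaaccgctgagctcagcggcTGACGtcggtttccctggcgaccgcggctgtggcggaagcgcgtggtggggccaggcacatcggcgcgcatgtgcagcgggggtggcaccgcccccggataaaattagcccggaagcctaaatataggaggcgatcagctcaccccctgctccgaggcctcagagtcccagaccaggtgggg
Arntl start 2, chr7:113207261-113207560, plus strand: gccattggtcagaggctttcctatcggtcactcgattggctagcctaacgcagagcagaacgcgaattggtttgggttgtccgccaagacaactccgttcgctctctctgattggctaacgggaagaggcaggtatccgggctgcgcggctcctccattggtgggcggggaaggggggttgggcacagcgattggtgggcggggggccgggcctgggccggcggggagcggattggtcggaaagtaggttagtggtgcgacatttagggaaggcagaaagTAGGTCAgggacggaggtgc

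The Ciart region held 3 E-boxes, with first bases at positions -116, -58 and -44, where -1 is the last base before the start. E-boxes were found in 7.15% of the 32851 promoter windows of the table, and 3 or more of them in 29 windows. Per1 start 1 held a CRE core at -246, an E-box at -166 and a PAR bZIP site at -24. Per1 start 2 held a CRE core at -132. The CRE core was in 20.8% of windows and the PAR bZIP site in 3.38%. Arntl start 2 held no E-box and a single exact match to TAGGTCA at position 31 after the start, a match found in 2.61% of windows. Only exact letters were searched, so sites with variant letters, such as the taggtta further upstream in that window, were not counted. The window of Arntl start 1, which overlaps that of start 2, held none of the letters searched. The glucocorticoid receptor core, found in 6.85% of windows, was in none of the 5 windows of the 3 genes. These matches describe letters within a short window and do not show that a protein binds there.

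**Figure D1:**
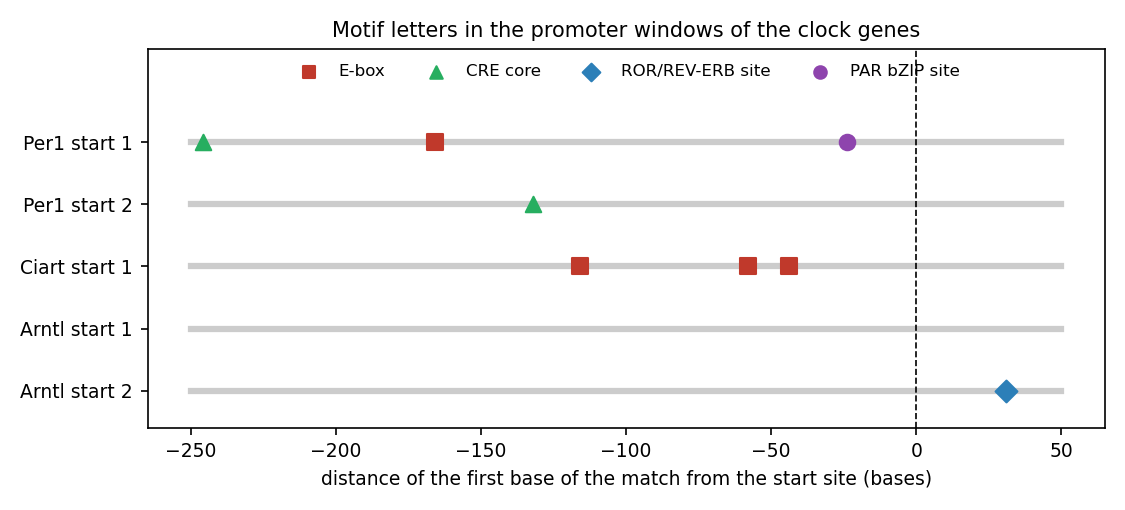
Positions of the matched letters in the 5 promoter windows of Per1, Ciart and Arntl. The x axis is the distance of the first base of a match from the start site in bases, each grey line is a window, and the symbols stand for the E-box, the CRE core, the ROR and REV-ERB site and the PAR bZIP site. The 3 E-boxes of Ciart lie between -116 and -44, and the single exact TAGGTCA match of Arntl start 2 lies at 31.

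Levels were deposited as TPM (the share of a gene's transcripts among all transcripts of a library, scaled for gene length), so the number of reads behind a value is unknown. Libraries are numbered as in the table's columns, and these numbers are not tied to the sample titles. The listed genes, all of which carry an authors' p under 0.05, made up 30.1% to 31.5% of all TPM in the CORT libraries and 29.2% to 29.9% in the vehicle libraries. The test was limma on log2(TPM + 1), run over the 2241 genes that reached 1 TPM in 3 or more libraries, with Benjamini-Hochberg adjustment over all of them. Of these, 579 were higher and 554 lower in CORT at an adjusted p under 0.05, so 50.6% of the tested genes were called in either direction. Since the list was selected on the same libraries, a low p in it is no independent evidence of a change. CORT library 3 stood apart in 2 choroid plexus genes, Folr1 and Kcne2. Folr1 had 3.73, 2.10 and 22.5 TPM in the CORT libraries, against 1.95, 1.33 and 3.20 TPM in the vehicle libraries. Kcne2 had 0.81, 0.60 and 7.51 TPM in the CORT libraries, against 0.56, 0.39 and 0.27 TPM in the vehicle libraries. Results for the 7 clock genes in the table are therefore also given without CORT library 3.

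Among the 3 clock genes, Ciart rose, Arntl fell, and Per1 was higher in every CORT library but did not pass the test. The changes in Ciart, the repressor, and in Arntl, the activator, thus ran in opposite directions. The call of Arntl was less stable, since it was lost in 4 of the fits that left out a library. Its adjusted p of 0.035 from limma was close to the 0.051 of Per1. Every CORT library lay outside the vehicle range for all 3 genes. Such separation was common in this selected table, where the groups did not overlap for 69.8% of the tested genes, with CORT all above vehicle for 35.4% and all below for 34.4%. Permuting the library labels of each gene (exact, two-sided) gave p = 0.1 for all 3, the smallest p that 3 libraries against 3 allow.

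Ciart (ENSMUSG00000038550, chromosome 3) had 26.9, 23.2 and 23.6 TPM in the CORT libraries, against 16.3, 13.8 and 15.2 TPM in the vehicle libraries. The lowest CORT library was well above the highest vehicle library, and the spread within each group was small beside the gap. The means were 24.6 ± 2.06 TPM in CORT and 15.1 ± 1.24 TPM in vehicle (SD, n = 3 each), a ratio of 1.63. On the log2(TPM + 1) scale the difference was 0.67 (SE 0.10, 95% interval 0.45 to 0.88), with an adjusted p of 0.0013 from limma, and it ranked 126 among the 1130 tested genes with a positive difference. Higher calls made up 25.8% of the tested genes. Without CORT library 3 the difference was 0.70 (adjusted p = 0.0037 from limma). Over all the alternatives it lay between 0.60 and 0.72, and the call was kept in each. A gene antisense to Ciart overlaps it, and reads of the pair cannot be told apart if strand was not used in counting. In whole tissue, a change in RNA per cell and a change in the number of cells that hold the RNA cannot be told apart.

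Arntl (ENSMUSG00000055116, chromosome 7) had 13.2, 14.3 and 12.4 TPM in the CORT libraries, against 17.2, 15.5 and 16.3 TPM in the vehicle libraries. The groups did not overlap, but the highest CORT library came within 1.24 TPM of the lowest vehicle library. The means were 13.3 ± 0.920 TPM in CORT and 16.3 ± 0.863 TPM in vehicle (SD, n = 3 each), a ratio of 0.814. On the log2(TPM + 1) scale Arntl fell by 0.28 (SE 0.09, 95% interval -0.48 to -0.07), with an adjusted p of 0.035 from limma. Lower calls made up 24.7% of the tested genes, and 46.6% of the tested genes had a larger difference in either direction, so the size of the change in Arntl was near the middle of the table. The call was lost in 4 of the 6 fits that left out a library. Without CORT libraries 1, 2 and 3 the adjusted p from limma was 0.081, 0.051 and 0.103, and without vehicle library 1 it was 0.091. A gene antisense to Arntl overlaps it as well.

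Per1 (ENSMUSG00000020893, chromosome 11) had 41.50, 38.20 and 42.27 TPM in the CORT libraries, against 35.96, 31.43 and 36.94 TPM in the vehicle libraries. Its groups did not overlap, though CORT library 2 lay only 1.26 TPM above vehicle library 3. The means were 40.7 ± 2.16 TPM in CORT and 34.8 ± 2.94 TPM in vehicle (SD, n = 3 each), a ratio of 1.17. The log2(TPM + 1) difference was 0.22 (SE 0.08, 95% interval 0.03 to 0.41), with an adjusted p of 0.051 from limma. A larger difference, in either direction, was found for 61.5% of the tested genes. Without CORT library 3 the difference of Per1 was 0.19 (adjusted p = 0.129 from limma), and without vehicle library 2, the lowest, it was 0.15 (adjusted p = 0.129). Per1 passed without vehicle library 3 (0.27, adjusted p = 0.040 from limma) and after quantile normalization (0.20, adjusted p = 0.045). After a correction for transcript GC content, fitted on the listed genes alone, it also passed, with a difference of 0.39 (adjusted p = 0.0085 from limma). The longest Per1 transcript has a GC content of 59.4%, above the median of 51.2% over the tested genes, and those of Ciart and Arntl have 52.2% and 48.2%.

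**Figure D2:**
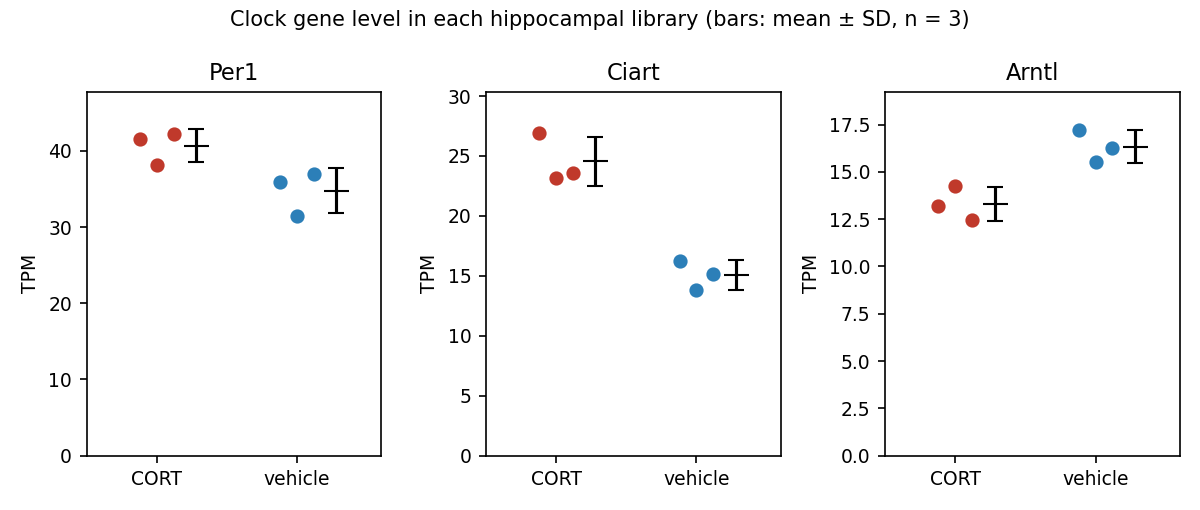
TPM of Per1, Ciart and Arntl in each of the 3 CORT and 3 vehicle libraries. Points are libraries and black bars are the mean and SD of each group. Ciart lies between 23.2 and 26.9 TPM in CORT and between 13.8 and 16.3 TPM in vehicle, while the groups of Per1 and Arntl lie closer together without overlapping.

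The ratios of activator to repressors were also read within each library, where the scaling of that library cancels. On the log2 scale, a difference in ratio is the difference of one gene minus that of the other. Arntl and each repressor had already separated the groups in opposite directions. The lower ratios of Arntl and their smallest possible p therefore followed from those values and are no further evidence. The ratio of Arntl to Ciart was 0.490, 0.615 and 0.528 in the CORT libraries, against 1.06, 1.12 and 1.07 in the vehicle libraries. Arntl was thus the more abundant of the pair, per length, in every vehicle library and the less abundant in every CORT library. On the log2 scale of (TPM + 1) the ratio differed by -0.95 (exact two-sided permutation test, p = 0.1, the smallest possible). The ratio of Arntl to Per1 was 0.318, 0.374 and 0.294 in the CORT libraries, against 0.479, 0.493 and 0.440 in the vehicle libraries. That ratio was lower in all 3 CORT libraries than in any vehicle library, by -0.50 on the same scale (exact permutation test, p = 0.1). Without CORT library 3 the differences were -0.93 for Arntl over Ciart and -0.43 for Arntl over Per1. The 2 repressors also shifted against each other. Ciart over Per1 was 0.649, 0.607 and 0.557 in the CORT libraries, against 0.452, 0.439 and 0.411 in the vehicle libraries (log2 difference 0.45, exact permutation test, p = 0.1), a ratio chosen after its values had been seen.

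**Figure D3:**
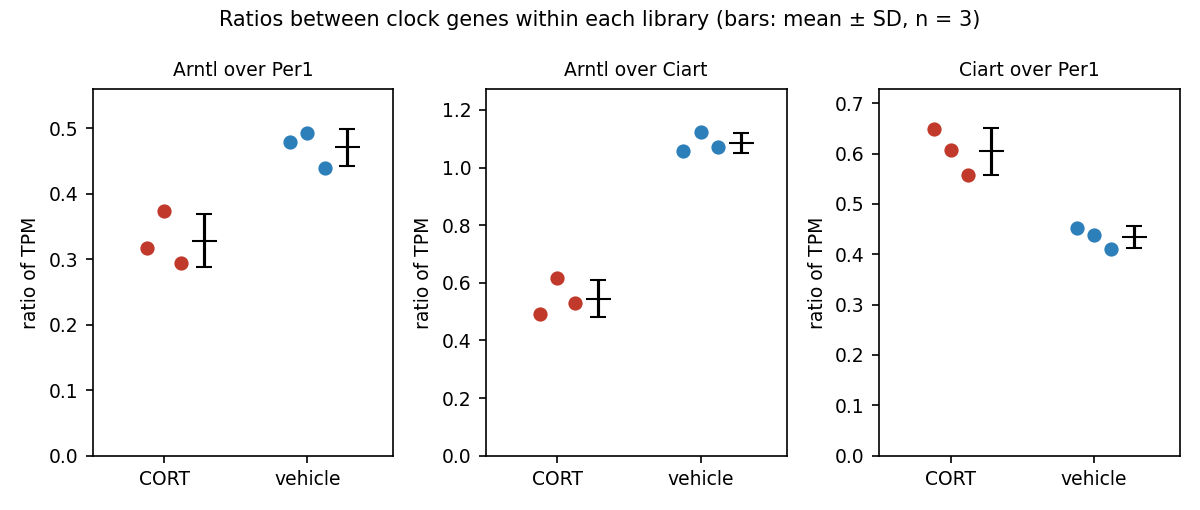
Ratios of TPM between pairs of the 3 clock genes within each library. Points are libraries, black bars are the mean and SD of the 3 CORT or 3 vehicle libraries, and every axis starts at 0. Arntl over Ciart lies between 0.490 and 0.615 in CORT and between 1.06 and 1.12 in vehicle.

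Few other genes of the clock were in the table. Of 38 clock genes on 5 lists of activators, repressors, the nuclear receptor loop, bZIP outputs and modifiers of clock proteins, 7 were listed and all 7 were tested. Ciart was the 1 gene higher, Arntl the 1 gene lower, and Per1, Bhlhe41, Nr1d1, Rorb and Hlf did not pass. The 2 calls of 7 compare with 50.6% of all tested genes, and the median difference of the 7 was -0.17 against 0.05 over all tested genes. None of the 17 modifiers of clock proteins was in the table. Every gene in the table carries an authors' p under 0.05, so the 7 are clock genes kept by a selection on these same libraries. The other clock genes on these lists, among them Clock, Per2, Cry1 and Dbp, were not analysed here.

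Nr1d1, which encodes the Arntl repressor REV-ERB alpha, had 81.1, 64.5 and 73.6 TPM in the CORT libraries, against 88.0, 80.9 and 84.2 TPM in the vehicle libraries. CORT library 1 fell within the vehicle range. The log2(TPM + 1) difference was -0.21 (SE 0.09, adjusted p = 0.062 from limma). Nr1d1 is normally driven by BMAL1 through E-boxes, as Per1 and Ciart are, but its difference had the sign of that of Arntl. Rorb, which encodes a ROR protein of the nervous system, had 1.55, 1.57 and 1.57 TPM in the CORT libraries, against 2.19, 2.06 and 2.28 TPM in the vehicle libraries. The groups of Rorb did not overlap, with a difference of -0.31 (SE 0.12, adjusted p = 0.056 from limma). Nr1d1 and Rorb both passed, as lower, when each library was scaled to the same median (adjusted p of 0.033 and 0.030 from limma). That median was taken over the tested genes alone, all selected by the authors' p. Nr1d1 also passed without CORT library 1 (-0.29, adjusted p = 0.033), but not in the other 5 fits that left out a library. Without CORT library 2 its difference was -0.12 (adjusted p = 0.202 from limma), without CORT library 3 it was -0.22 (0.103), and after the GC correction its difference was -0.09 (adjusted p = 0.414 from limma). Rorb passed with no filter on low values (adjusted p = 0.048 from limma), after quantile normalization (0.018), without the trend and robust options of limma (0.012) and after the GC correction (0.017). It passed in none of the 6 fits that left out a library, and without CORT library 3 its difference was -0.31 (adjusted p = 0.117 from limma).

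Bhlhe41, which encodes the E-box repressor DEC2, had 15.3, 13.0 and 11.8 TPM in the CORT libraries, against 16.2, 11.9 and 17.8 TPM in the vehicle libraries. Its groups overlapped widely (difference -0.17, SE 0.15, adjusted p = 0.289 from limma). Without CORT library 3 the difference was -0.10 (adjusted p = 0.591 from limma), and leaving out each library in turn gave -0.33 (without vehicle library 2) to -0.06 (without vehicle library 3). Hlf, which encodes a PAR bZIP output factor of the clock, had 75.9, 67.6 and 61.7 TPM in the CORT libraries, against 72.5, 66.9 and 75.0 TPM in the vehicle libraries. Hlf overlapped as well (difference -0.07, SE 0.09, adjusted p = 0.471), and without CORT library 3 its difference was 0.0046.

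**Figure D4:**
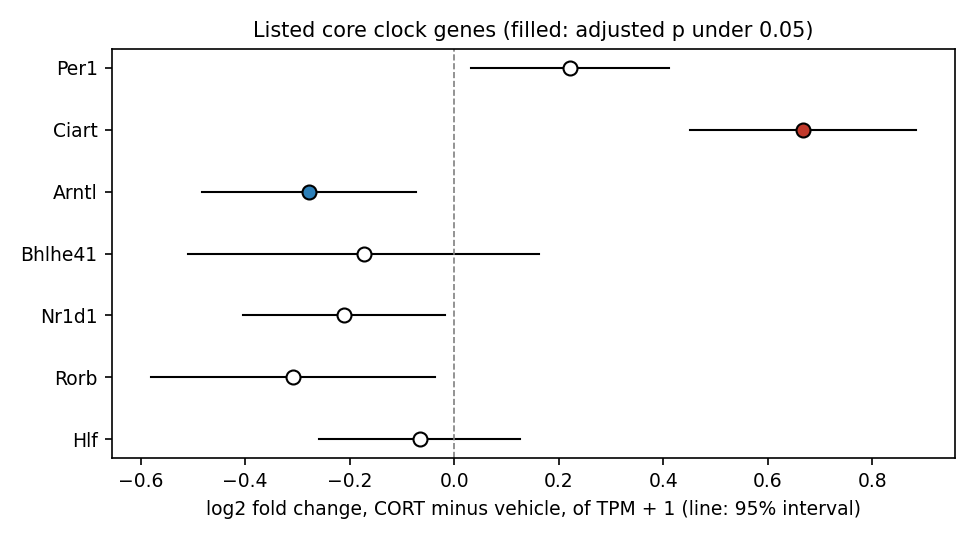
Log2 fold change of TPM + 1, CORT minus vehicle, for the 7 clock genes in the table. Points are the limma estimates, lines their 95% intervals, and filled points passed at an adjusted p under 0.05. Ciart (0.67) and Arntl (-0.28) are filled, while Per1 (0.22), Nr1d1 (-0.21), Rorb (-0.31), Bhlhe41 (-0.17) and Hlf (-0.07) are open.

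Within the vehicle group, all 7 clock genes had their lowest value in library 2. That library was the lowest vehicle library for 48.0% of all tested genes. The median deviation of library 2 from the vehicle mean was -0.05 on the log2 scale, and the deviations of Per1, Ciart and Arntl were -0.14, -0.12 and -0.07. No such common order was seen among the CORT libraries. CORT library 2 was lowest for Per1, Ciart and Nr1d1, library 3 for Arntl, Bhlhe41 and Hlf, and library 1 for Rorb.

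Per1 also belongs to the targets of the glucocorticoid receptor, and in that list it had the smallest difference. Of 17 such genes, 16 were in the table and tested, 15 were higher, none was lower, and Per1 alone did not pass, beside 25.8% higher and 24.7% lower over all tested genes. Their median difference was 0.75, against 0.05 over all tested genes. Fkbp5, a co-chaperone of the receptor, had a difference of 1.37, and the others with the smallest p were Cdkn1a (2.30), Nfkbia (1.36), Arrdc2 (1.35), Ddit4 (0.86) and Errfi1 (0.84). The next smallest difference after that of Per1 was 0.32, for the metallothionein Mt1. This list was chosen with earlier results of these data known.

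Among immediate-early genes driven by CREB, the second list that holds Per1, the direction was the reverse. Of 15 genes, 7 were tested, 5 were lower and none was higher, beside 24.7% lower and 25.8% higher over all tested genes. Their median difference was -0.51, against 0.05 over all tested genes. Nr4a2, an orphan nuclear receptor, had 32.4, 29.4 and 33.1 TPM in the CORT libraries, against 51.2, 51.8 and 50.8 TPM in the vehicle libraries. Nr4a2, Fosb, Fos, Npas4 and Egr1 fell by 0.68, 0.62, 0.58, 0.51 and 0.35 on the log2 scale. Per1 (0.22) and Arc (0.21, adjusted p = 0.056 from limma) were the 2 members with positive values, and neither passed. Arc, a regulator of synaptic strength, was named after its value had been seen.

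**Figure D5:**
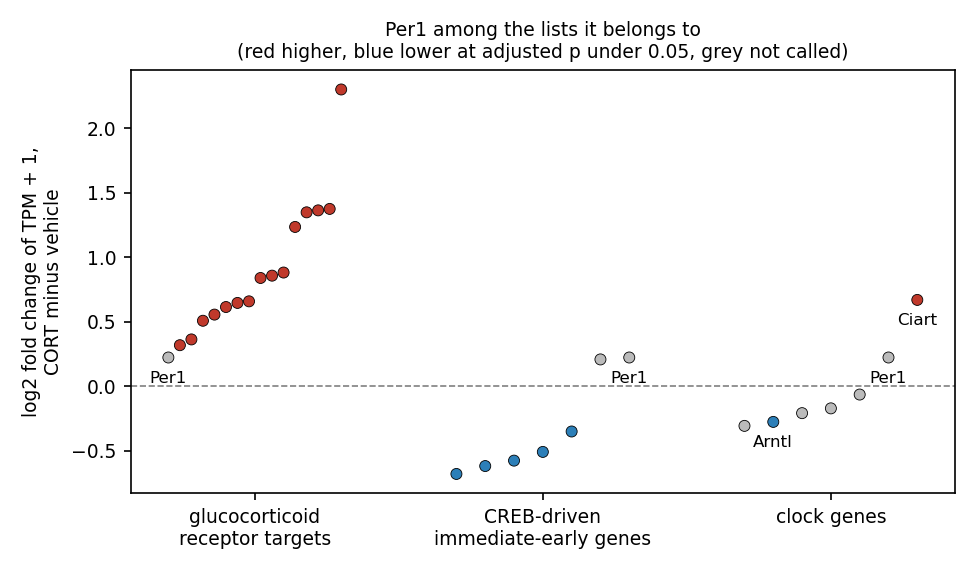
Log2 fold change of TPM + 1, CORT minus vehicle, for the tested members of 3 gene lists. Each point is a gene, red and blue points passed as higher and lower at an adjusted p under 0.05, and grey points did not pass. Per1 (0.22) is the lowest point among the glucocorticoid receptor targets and the highest among the CREB-driven immediate-early genes.

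Of 17 genes known for daily rhythms in many tissues, 7 were tested, of which 4 passed as higher, Klf10 as lower and 2 not at all. Over all tested genes 50.6% passed in either direction, 25.8% as higher and 24.7% as lower. The 4 that rose, Fkbp5 (1.37), Pdk4 (0.88), Tsc22d3 (0.65) and Klf9 (0.36), are all on the list of glucocorticoid receptor targets too. Klf10, a TGF-beta-inducible repressor that BMAL1 is known to drive, fell by 0.61 and had 12.7, 10.4 and 12.3 TPM in the CORT libraries, against 18.7, 18.6 and 17.9 TPM in the vehicle libraries. Wee1, a cell cycle kinase with E-boxes in its mouse promoter, had 12.4, 12.2 and 12.8 TPM in the CORT libraries, against 10.5, 10.7 and 11.2 TPM in the vehicle libraries. The groups of Wee1 did not overlap, but its difference of 0.19 did not pass (adjusted p = 0.076 from limma). The chaperone Hspa8 had a difference of -0.09 that did not pass (adjusted p = 0.320 from limma). Quantile normalization gave 0.10 for Hspa8, and without CORT library 2 it passed as lower (-0.19, adjusted p = 0.042 from limma).

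The tested genes whose levels followed each clock gene most closely were found by Pearson's r of log2(TPM + 1) over the 6 libraries. These points share their libraries and the difference between groups, so r is a description only. For Ciart they were Sult1a1 (r = 0.997), Inpp5j (0.996), Fzd2 (0.993), Abhd15 (0.991) and Angptl4 (0.991). For Arntl they were Slc9a3r2 (0.996), Sgpp2 (0.992), S1pr1 (0.991), Cdc42ep2 (0.990) and Ephb4 (0.986). For Per1 they were Wasf2 (0.976), Wac (0.974), Adcy1 (0.973), Zbtb11 (0.973) and Pelp1 (0.970). No clock gene was among them, but only 7 of the 2241 tested genes were on the clock lists. Many genes came close. With clone names (Gm and Rik) passed over, r was at least 0.95 for 115 genes with Ciart, 44 with Arntl and 19 with Per1. With the group means removed, r for the 15 named genes was between 0.919 and 0.992. Those 15 were picked by the highest r over the same libraries, so a high r within groups was partly built in. Per1 and Ciart had r = 0.88 with each other and 0.66 after the group means were removed. Arntl had r = -0.83 with Ciart and -0.73 with Per1, but 0.32 and -0.02 within groups. The negative values for Arntl thus came from the difference between the groups.

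Markers of several cell types differed between the same libraries, and their part in the clock gene values was not tested. Shares of called markers stand against 25.8% higher and 24.7% lower among all tested genes. Of 10 microglial markers, 5 were in the table, with a summed level of 108 to 138 TPM in CORT and 171 to 194 TPM in vehicle, and 4 were lower and none higher. Of 10 endothelial markers, 7 were listed, of which 4 were lower (Cldn5, Kdr, Cdh5 and Tek) and 1, the glucose transporter gene Slc2a1, was higher. Their sum was 179 to 190 TPM in CORT and 149 to 172 TPM in vehicle, and its direction was that of Slc2a1 alone (means 135.0 TPM in CORT and 73.7 TPM in vehicle), since the other 6 had negative differences. The endothelial junction gene Cldn5 had 15.8 to 19.0 TPM in CORT and 42.9 to 52.2 TPM in vehicle. Of 10 astrocyte markers, 6 were listed, with sums of 1526 to 1542 TPM in CORT and 1664 to 1736 TPM in vehicle. Of these, 2 were lower and none higher. The 2 were Aldoc (means 899 TPM in CORT and 1017 TPM in vehicle) and Sox9 (7.55 TPM in CORT and 13.5 TPM in vehicle). Aldoc was the largest part of the sum. Slc4a4 alone had a positive difference (0.19), which did not pass. Of 8 pericyte markers, 4 summed to 93.2 to 98.0 TPM in CORT and 103 to 118 TPM in vehicle. Among them Vtn was lower (means 53.4 TPM in CORT and 71.2 TPM in vehicle) and Rgs5 was higher (28.2 TPM in CORT and 23.2 TPM in vehicle). Of 10 oligodendrocyte markers, 2 were listed, and they changed in opposite directions. Mobp, a myelin gene, was higher (means 798 TPM in CORT and 559 TPM in vehicle), and Sox10, a factor of the oligodendrocyte lineage, was lower (17.8 TPM in CORT and 37.3 TPM in vehicle). Their sum of 644 to 903 TPM in CORT and 508 to 688 TPM in vehicle is nearly all Mobp. The groups of Mobp overlapped, with 628 TPM in CORT library 3 and 648 TPM in vehicle library 3. Of 6 choroid plexus markers, 2 summed to 2.70 to 30.0 TPM in CORT and 1.72 to 3.47 TPM in vehicle. Of 10 markers of hippocampal excitatory neurons, 4 were listed, summing to 313 to 322 TPM in CORT and 378 to 423 TPM in vehicle. Wfs1 and C1ql2 were lower, Neurod6 did not pass (-0.21), and Dsp did not pass but was above the vehicle range in every CORT library (means 10.2 TPM in CORT and 8.83 TPM in vehicle). No listed marker was at 0 in all libraries. No marker of inhibitory neurons or thalamus was in the table, and those genes were not analysed here.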

How the data were processed

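Hippocampal RNA of 3 CORT and 3 vehicle mice was prepared with the TruSeq kit and sequenced as paired ends. The authors trimmed reads with fastp, and for the later steps the notes of the submitters list RSEM, StringTie, HISAT2 and the build GRCm39. No version of these tools and no gene annotation is named for them. TPM per library were computed by the authors. The table also holds their fold change, its log2 value and a p, which were not used, except to count the genes with a p under 0.05 (2404 of 2404). TPM keeps no depth, so counting precision is unknown. The columns beside the CORT columns are named WT and were taken as vehicle, the only other group. Nothing states that replicates came from separate cages or days, so p-values set the difference between groups against the spread among these libraries only.

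The scale was log2(TPM + 1), and limma 3.58.1 (eBayes with trend and robust options) was run in R 4.3.3, over genes with at least 1 TPM in at least 3 libraries, at an adjusted p of 0.05. Log2 differences of low genes are understated by the pseudocount. This fit was first tested on simulated data. Within-library ratios were compared by exact permutation tests. Alternatives were pseudocounts of 0.1 and 0.5, no filter, a filter of 5 TPM, quantile normalization, median scaling, eBayes without trend and robust options, a GC correction (a spline with 4 degrees of freedom, GC content of the longest transcript in GENCODE M21, matched for 99.9% of genes) and leaving out each library. Quantile normalization, median scaling and the GC correction were computed over the listed genes that passed the filter. All of these were selected by the authors' p, so the 3 steps do not draw on whole libraries. Promoters came from RefSeq, GRCm38.p6. In GENCODE M21 an antisense gene overlaps Ciart and another overlaps Arntl. The study's methods name an orientation mode for the HISAT2 alignment. They do not say whether the quantification used strand, so the values of Ciart and Arntl may hold reads of those partners. Tables and figures were made with matplotlib 3.10.9, numpy 2.4.6 and pandas 2.3.3 in Python 3.11.15.

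The 3 genes and all lists were chosen with earlier results of these data known. Named genes were the 3, every listed clock and rhythmic gene, up to 6 by smallest p of the receptor and CREB lists, and the 5 genes with the highest r to each of the 3, passing over clone names.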

Additional observations from a re-analysis of the deposited data

How the results depend on the processing

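Ciart kept its direction and its call in all 14 alternatives. Arntl kept its direction in all 14, with a difference between -0.33 and -0.23 and adjusted p-values from limma of 0.046 to 0.103 when single libraries were left out. Per1 stayed positive in all 14 and passed in 3, with 0.20 after quantile normalization, 0.39 after the GC correction, and 0.15 to 0.27 when single libraries were left out (adjusted p from limma 0.040 to 0.129). Among the 7 clock genes tested, 2 were higher after quantile normalization and after the GC correction, and 1 to 2 when single libraries were left out. The number lower was 2 with no filter, with quantile normalization, with eBayes lacking trend and robust options and with the GC correction, 3 with median scaling, and 0 to 1 when single libraries were left out. Hlf ranged from -0.14 to 0.0046 when single libraries were left out, and Hspa8 turned to 0.10 with quantile normalization. Over all genes, leaving out single libraries gave 338 to 729 higher and 282 to 464 lower, against 579 and 554. Median scaling gave 485 higher and 772 lower, so that 38.6% of its calls were higher, against 51.1%. The differences of Arntl over Per1 and Arntl over Ciart lay between -0.59 and -0.43 and between -1.03 and -0.88 when single libraries were left out. No paired analysis was possible because the sample titles of the groups share only 1 replicate number and the numbers of the table's columns are not tied to them. The cause of these changes was not tested. Read depth is unknown, so what depth limits cannot be stated.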
